A study of Homo sapiens with 24 samples.

Results

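The human 14-3-3 proteins are encoded by YWHAB (beta), YWHAE (epsilon), YWHAG (gamma), YWHAH (eta), YWHAQ (theta), YWHAZ (zeta) and SFN (sigma). The first 6 of these genes were followed here through every deposited list of N1-methyladenosine (m1A) peaks, by matching each list's RefSeq transcripts to a gene symbol. Of the 6 genes, 5 had at least 1 peak, out of 9319 genes with a peak in any list. YWHAE had no peak in any of the 10 lists used here, and neither had SFN. The 5 genes gave 39 peaks of 61237 in all. The family was chosen by peak calls of the same lists: YWHAG had been picked out because a peak was called on it in both knockout replicates and in no wild-type one. Which lists held a member is therefore a description, with no test.

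The cells were HEK293T, a human embryonic kidney line. RNA came from wild-type cells (WT), cells of the same line with ALKBH3 knocked out (KO), and 3 further sets of wild-type cells: untreated (UT), given 50 µM H2O2 for 30 min (H2O2), or kept 16 h in medium without serum (Starve). Input and anti-m1A immunoprecipitated (IP) libraries of polyadenylated RNA were made for each, with 2 replicates, and for WT and KO also IP libraries treated with a demethylase. No label says whether the knockout line is 1 clone, or whether replicates are separate cultures.

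14-3-3 proteins are small acidic adaptors that work as dimers and bind short phosphorylated serine or threonine motifs. They hold clients such as the RAF kinases, CDC25 phosphatases and the apoptosis protein BAD in an inactive state or away from their site of action. The m1A mark puts a methyl group on the pairing face of adenosine, which hinders base pairing and reverse transcription. In messenger RNA, m1A peaks are known to gather near the 5′ end. ALKBH3 is a demethylase that can remove the mark from RNA, and treatment of RNA with an AlkB-type demethylase is used in m1A mapping to tell the mark from other signal.

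Lists held 2175 to 11362 peaks. A peak list gives no value where nothing was called, and a peak is no measure of how much RNA of a gene was present. ALKBH3 had 0 peaks in all 10 lists, so the knockout could not be checked from them. Of 8 markers of other cell types 1 had a peak, COL1A1, in 2 lists. Of 4 genes chosen as markers of the line 3 had one: VIM in 5 lists, NEFL in 3 and PAX2 in 1, while LHX1 had 0. The peak names begin with macs in the WT and KO lists. They begin with IP_WT in the UT lists, IP_HO in the H2O2 lists and IP_FBS in the Starve lists. The share of summits within 300 nt of the transcript start was 55.4% to 73.9% in the WT and KO lists. It was 29.2% to 45.0% in the UT, H2O2 and Starve lists. What part this difference has in the results was not tested.

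Each of the 6 transcript stretches called in more than 1 list lay near the 5′ end, so the DNA just upstream of the transcript start is shown for 3 members. YWHAG and YWHAQ were the members called in KO only, which means in both KO lists but in no WT list, and YWHAB was called in 9 of the 10 lists. The stretches hold the 250 bases before the start, 5′ to 3′ on the strand of the gene, from RefSeq's promoter table of assembly GRCh38.p14, at chr7:76358992-76359241 (minus strand) for YWHAG, chr2:9630998-9631247 (minus strand) for YWHAQ and chr20:44885455-44885704 (plus strand) for YWHAB. The table holds 5 of the 6 members. Capitals mark 3 kinds of short motif, searched on both strands: the GC box GGGCGG, the CCAAT box CCAAT and the core of the cAMP response element TGACG.
YWHAG: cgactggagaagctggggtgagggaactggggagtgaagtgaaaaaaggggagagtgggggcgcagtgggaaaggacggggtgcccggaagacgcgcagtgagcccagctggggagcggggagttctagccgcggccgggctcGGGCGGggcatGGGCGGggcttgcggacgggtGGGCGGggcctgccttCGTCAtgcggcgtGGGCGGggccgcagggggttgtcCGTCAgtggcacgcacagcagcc
YWHAQ: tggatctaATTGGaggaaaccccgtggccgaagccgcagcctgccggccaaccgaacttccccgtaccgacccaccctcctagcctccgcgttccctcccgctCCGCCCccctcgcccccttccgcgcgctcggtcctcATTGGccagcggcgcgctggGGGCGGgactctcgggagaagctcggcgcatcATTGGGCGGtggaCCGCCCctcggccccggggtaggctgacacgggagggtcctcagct
YWHAB: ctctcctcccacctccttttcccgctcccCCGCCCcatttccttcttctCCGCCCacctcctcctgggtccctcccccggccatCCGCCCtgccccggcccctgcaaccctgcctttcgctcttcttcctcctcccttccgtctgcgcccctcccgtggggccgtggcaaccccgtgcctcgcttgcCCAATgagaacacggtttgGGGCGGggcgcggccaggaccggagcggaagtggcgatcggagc

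The GC box occurred 4 times in each of these 3 stretches, and 42.6% of the 35116 promoters in the table hold at least 1. The CCAAT box occurred 3 times in YWHAQ, where one copy overlaps a GC box, once in YWHAB and not in YWHAG (32.0% of all promoters). The TGACG core occurred 2 times in YWHAG and not in YWHAQ or YWHAB (21.2% of all promoters). It also occurred 2 times in YWHAH, which had no KO call. TATAAA was searched as well and occurs in none of the 3, though in YWHAH (10.7% of all promoters). The 250 upstream bases were about equally GC-rich in every member listed: 70.4% in YWHAB, 71.2% in YWHAE, 71.6% in YWHAG and YWHAQ, and 72.0% in YWHAH, against a median of 58.0% over all promoters. The first 50 bases after the start varied more: 60% in YWHAQ, 66% in YWHAE, 72% in YWHAB and 82% in YWHAG and YWHAH. Their median over all promoters was 60%. Whether GC content goes with being called was not tested. These matches are a description of the letters, and no factor's binding was measured.

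YWHAG, which encodes the gamma protein, was called alike in both replicates of the ALKBH3 knockout. On its single transcript, NM_012479, a peak lay at nt 51 to 189 in the first KO list and at nt 51 to 187 in the second. The fold enrichment, which is the authors' value for the summit over the local background, was 9.05 and 9.34. Neither WT list, neither UT list and neither H2O2 list held a peak anywhere on the transcript. Summits stood at nt 124 and nt 128, with a pileup, the coverage at the summit, of 470 and 488. Within their lists these folds were at percentiles 95.7 and 97.5, and the pileups at percentiles 88.4 and 89.8. The 2 KO peaks were thus among the more enriched ones and nearly equal in place and fold.

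**Figure D1:**
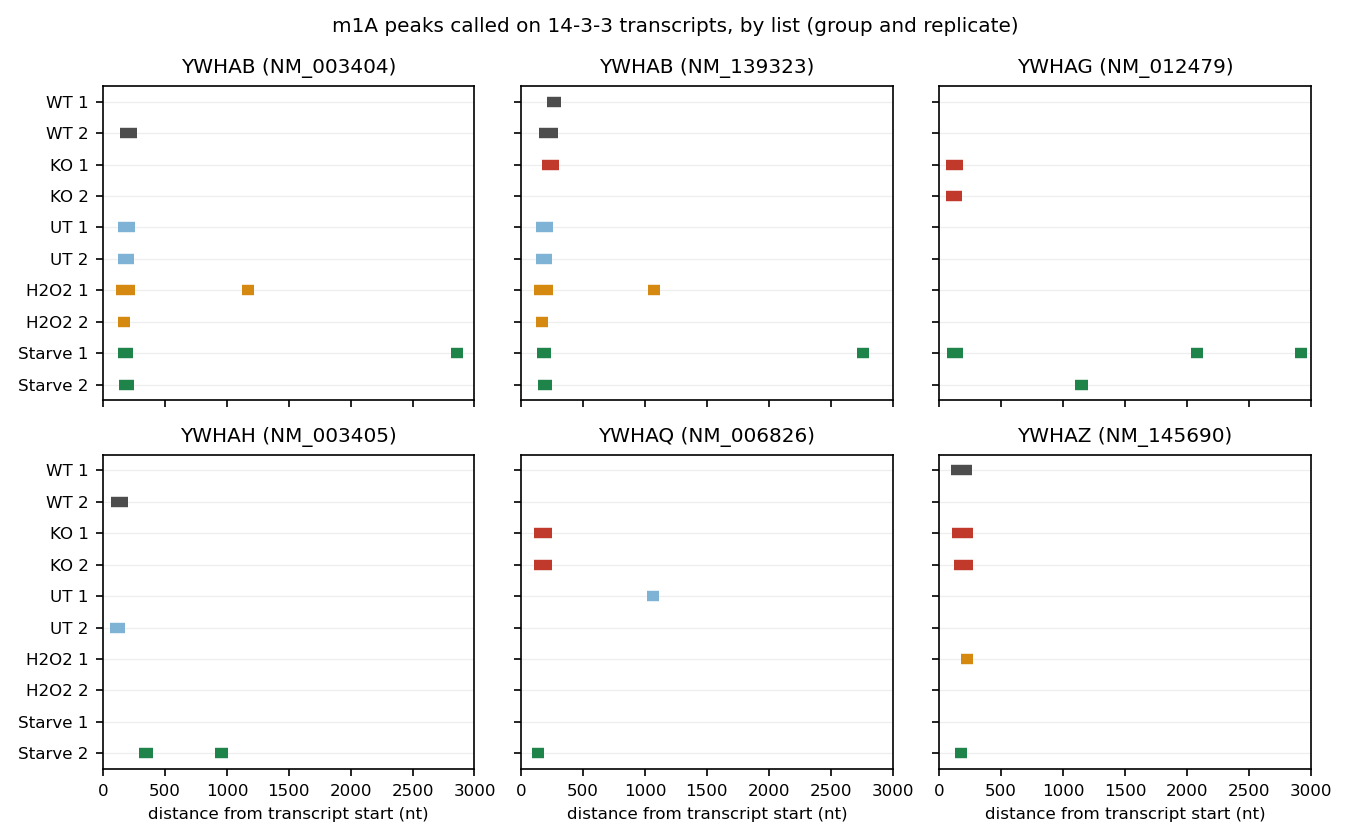
Position of each called peak (bars) on the transcripts of the 5 genes, in nt from the transcript start, for the 10 lists (rows, coloured by group). Most bars stack near the start, such as the 9 lists with a YWHAB peak there, while bars further in, at nt 1015 or beyond for YWHAQ, YWHAG and YWHAB, appear in 1 list each.

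Serum starvation also gave YWHAG calls, but not in one place. The first Starve list held a peak at nt 64 to 192, with a summit at nt 122, a fold of 6.67 and a pileup of 316, which overlaps the KO region. The same list held 2 more, at nt 2034 to 2133 (fold 3.20) and nt 2871 to 2971 (fold 7.90). In the second Starve list the only YWHAG peak was at nt 1097 to 1199, with a fold of 16.1 and a pileup of 170. As a gene YWHAG was thus called in both Starve lists and neither UT list, although no stretch of the transcript was called in both.

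YWHAQ encodes the theta protein, abundant in brain and T cells. Like YWHAG it was called in KO only, at nt 105 to 246 and nt 106 to 249 of NM_006826. Both KO summits were at nt 182 and both pileups were 893, at percentiles 95.0 and 95.5 of their lists. The folds were only 3.34 and 3.36, at percentiles 38.7 and 41.9, so its pileup ranked high and its fold in the lower part of the list. In YWHAG both measures ranked high.

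Outside KO, YWHAQ had a weak peak in 2 lists. The second Starve list held one at nt 84 to 183 with a fold of 1.73, at percentile 2.06 of folds but 98.7 of pileups (567). The first UT list held one at nt 1015 to 1114 with a fold of 2.12. The first of these overlaps the KO region, the second does not.

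YWHAZ encodes the zeta protein, a widely expressed member of the family. Of its 6 curated RefSeq transcripts only NM_145690 carried a peak, always in one region between nt 97 and nt 276. It was called in both KO lists, with folds of 11.2 and 7.16 (percentiles 97.97 and 93.1) and pileups of 221 and 149. The first WT list held it too, with a fold of 4.73 and a pileup of 133, while the second WT list did not. The first H2O2 list (fold 3.15, pileup 85) and the second Starve list (fold 3.66, pileup 81) held it at percentiles 21.8 and 22.1 of folds. By fold YWHAZ thus ranked higher within the KO lists than within any other list that held it, in 2 of 2 replicates. By pileup it did not: the percentiles were 73.5 and 63.5 in the KO lists and 76.3 in the first WT list.

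YWHAB, the beta protein gene, was the member called most widely. Its 5′ region was held by 9 of the 10 lists, all but the second KO list, and 253 of the 9319 genes (2.71%) had a peak in 9 or more lists. On NM_139323 the folds were 3.05 and 4.35 in WT, 4.78 in the first KO list, 6.02 and 6.66 in UT, 11.5 and 3.65 in H2O2, and 5.36 and 8.17 in Starve. The pileups, in the same order, were 100 and 302, 187, 220 and 186, 377 and 132, and 147 and 175. The H2O2 replicates differed most, with folds at percentiles 96.0 and 21.0 of their lists, so the pair gives no common level under peroxide. Each of the 6 UT, H2O2 and Starve lists held a peak over this stretch.

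The 2 YWHAB transcripts had peaks at nearly the same places but not always of the same height. In the 7 lists that called both, the 5′ summits lay at nt 165 to 197 on NM_003404 and nt 171 to 197 on NM_139323, and differed by 0 to 6 nt within a list. The fold was higher on NM_003404 in 6 of these 7 lists: 5.90 against 4.35 in the second WT list, 6.81 against 6.02 and 6.95 against 6.66 in UT, 13.02 against 11.5 in the first H2O2 list, and 7.92 against 5.36 and 11.5 against 8.17 in Starve. In the second H2O2 list it was 3.62 against 3.65. Further in, the summits lay 95 nt apart in the first H2O2 list (summits at nt 1167 and 1072) and 96 nt apart in the first Starve list (nt 2862 and 2766). The transcripts share sequence, so their peaks are counted as 1 gene and not as separate evidence. The first WT list and the first KO list called NM_139323 alone, with summits further from the start, at nt 239 and nt 219.

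YWHAH, the eta protein gene, had the fewest calls among the 5 genes. The second WT list held a peak at nt 65 to 199 of NM_003405 with a fold of 6.63 and a pileup of 475, and the second UT list one at nt 54 to 180 with a fold of 7.65 and a pileup of 95. Both folds were high in their lists, at percentiles 86.9 and 91.6, and in neither condition did the other replicate hold a peak. The second Starve list held 2 peaks elsewhere, at nt 294 to 400 (fold 6.04) and nt 901 to 1008 (fold 8.69). No list of KO or H2O2 held YWHAH, and no condition had it in both replicates.

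**Figure D2:**
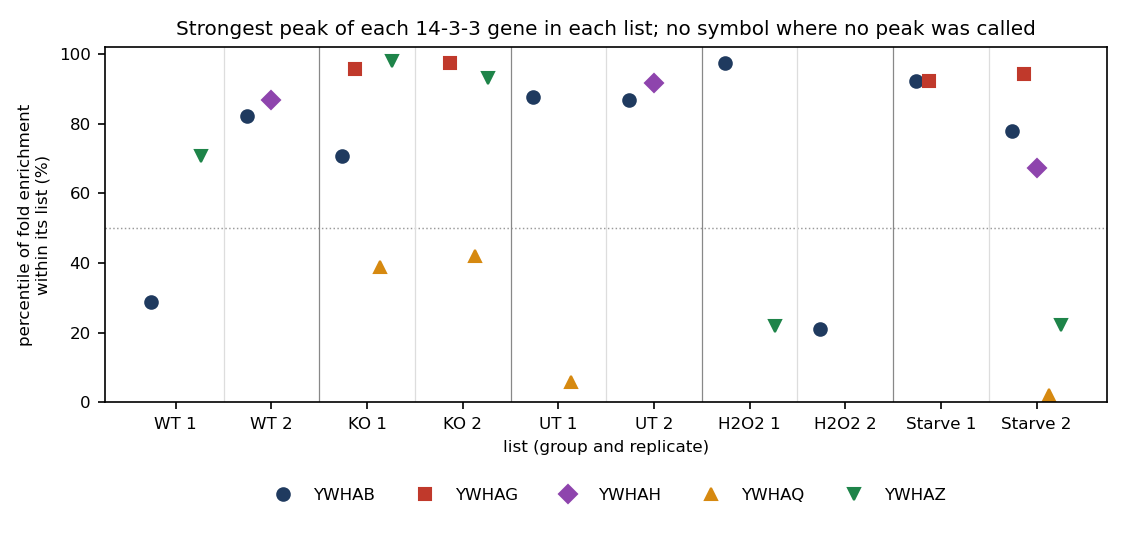
Percentile of the fold enrichment within its own list (vertical axis, %; the dotted line marks the middle of a list) for the strongest peak of each gene in each of the 10 lists. YWHAG lies at percentile 92.2 or higher in each of its 4 lists, and YWHAQ at or below percentile 41.9 in each of its 4.

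Across the family, 29 of the 39 peaks (74.4%) had their summit within 300 nt of the transcript start, against 41.1% of all 61237 peaks. All 5 peaks of YWHAZ did, 16 of 20 of YWHAB, 3 of 4 of YWHAQ, 3 of 6 of YWHAG and 2 of 4 of YWHAH. The 10 peaks further in came from 4 lists: 2 from the first H2O2 list, 4 from the first Starve list, 3 from the second Starve list and 1 from the first UT list. Each of these positions was called in 1 list alone. The choice of the members used calls, and lists and transcripts repeat a signal, so the 2 shares are given side by side without a test.

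Set against the lists as a whole, 2 of the 5 members with a peak (YWHAG and YWHAQ) were called in KO only, as were 635 of 3903 genes with a peak in those 4 lists (16.3%). Nothing can be read from this share, because the members were chosen with it known. In the reverse direction 0 of 5 members were called, against 4.97% of genes. The lists were unequal: WT held 2175 peaks, the fewest of any list, and 3410, and KO held 3447 and 3524. With equal numbers of peaks per list YWHAG and YWHAQ were still the 2 members called in KO only. What part list size has in the shares of all genes was not tested. With 2 lists against 2 no single gene can be tested usefully, the smallest exact two-sided p being 0.333.

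Under peroxide no member was called in both H2O2 lists and neither UT list (2.49% of 7517 genes were), and none in both UT lists and neither H2O2 list (8.23%). The Starve comparison shares these UT lists, and in it 1 of 5 members, YWHAG, was called in both Starve lists and neither UT list, as were 6.07% of 8465 genes. None was called in both UT lists and neither Starve list (4.08%). UT and WT, which the labels both describe as untreated wild-type cells, also differed in no member by this rule, with 14.2% of 6670 genes in UT alone and 1.57% in WT alone. The UT lists were assigned by their file names, whereas the descriptions of the UT libraries point to the Starve lists, and every comparison with UT rests on that choice. Peak names in the UT lists begin with IP_WT and those in the Starve lists with IP_FBS.

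Counted by condition, KO had the most members in both replicates: YWHAG, YWHAQ and YWHAZ, 3 of the 5, where 15.7% of the 9319 genes were in both KO lists. Starve had 2, YWHAB and YWHAG (24.1% of genes). WT, UT and H2O2 each had 1, YWHAB in every case, with backgrounds of 7.82%, 20.2% and 11.1%. The KO count includes the calls that chose YWHAG. By single list the number of members ranged from 1, in the second H2O2 list, to 5, in the second Starve list. These lists held 2017 and 3844 of the 9319 genes. The first Starve list held the most genes, 4836, and 2 members.

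The windowed files give coverage in windows of 10 nt for regions called in both replicates, with the demethylase-treated library beside the IP library. Both columns are scaled within a region, to a total near 200 over its windows. The values describe where within a region the reads lay, not how many there were. YWHAG, YWHAQ and YWHAZ had such regions in KO and YWHAB (NM_139323) in WT, and no member had a region in both genotypes, so KO and WT could not be compared here. After rescaling, the treated column was the same in both KO files within a tolerance of 1e-06 for 772 of 775 transcripts with at least 10 shared windows, YWHAG included, and in both WT files for 354 of 355. The IP columns were the same, at this tolerance, for 0 of them. Regions of the other members start at different nt in the 2 files, so their windows could not be matched 1 to 1. The treated profile of a genotype was therefore counted as 1 sample, and no test of treated against IP was made.

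**Figure D3:**
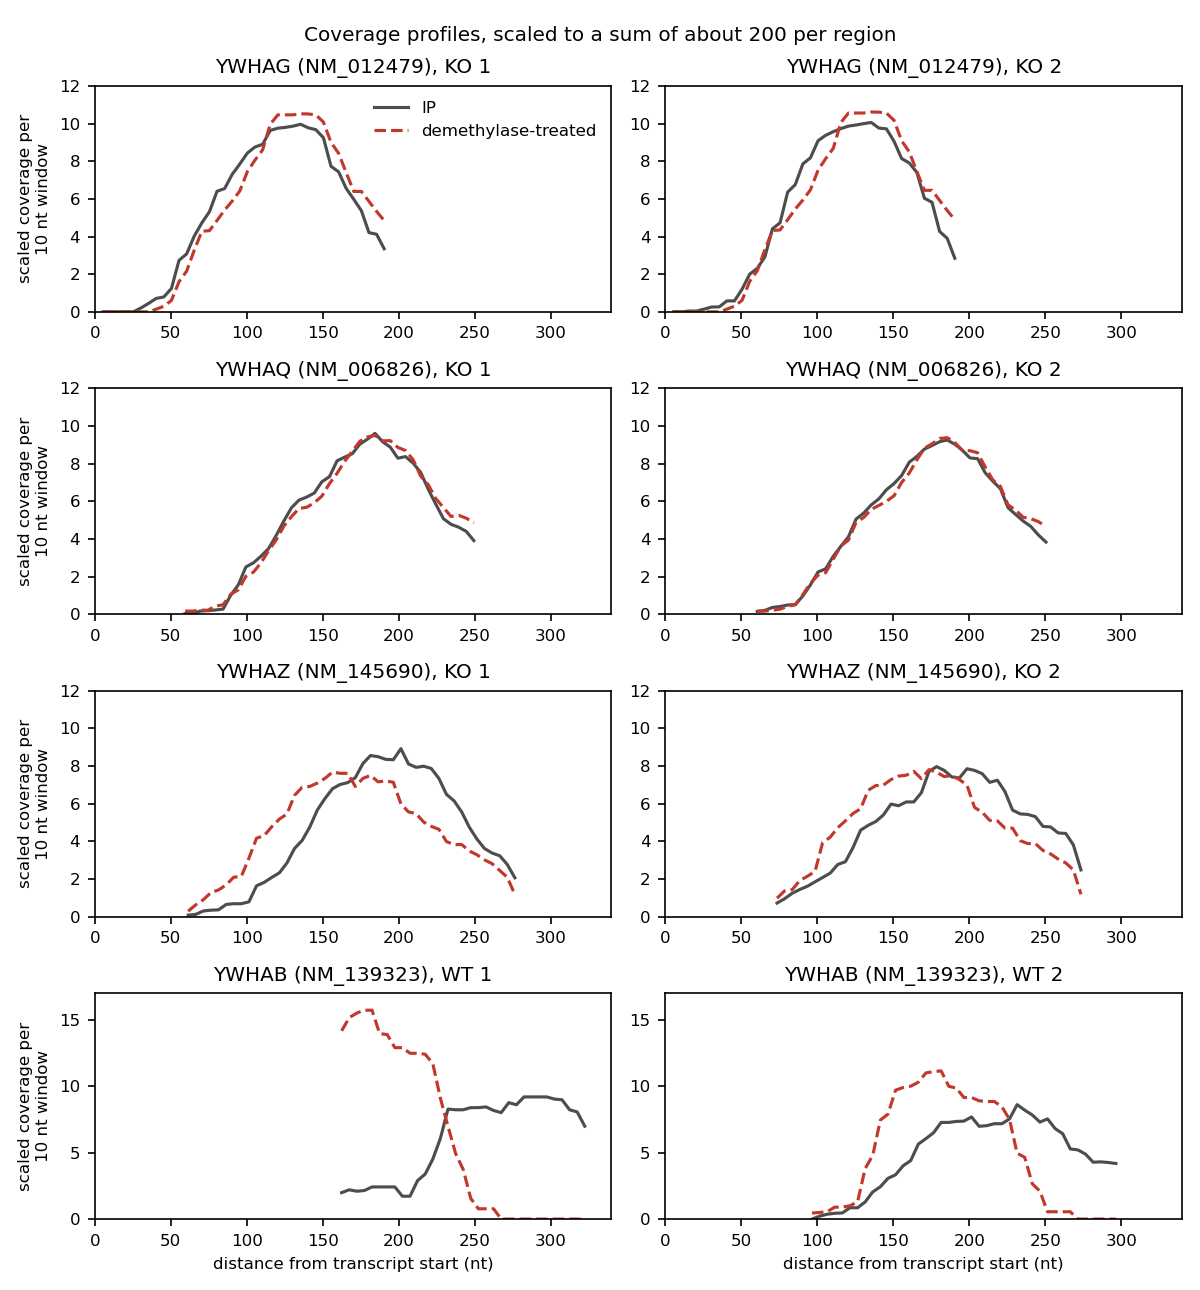
Scaled coverage per 10 nt window (vertical axis) along the transcript (nt from its start) for IP (solid) and demethylase-treated (dashed) libraries in the 2 files of each genotype. The curves nearly coincide for YWHAQ, the treated curve of YWHAZ lies nearer to the start, and in YWHAB the treated curve falls to 0 where IP coverage stays high. The vertical scale of the YWHAB panels is larger.

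For YWHAG the treated profile kept its top where IP had it. The highest window was nt 131 to 140 in both, at 10.5 treated against 9.97 IP in the first KO file and 10.6 against 10.1 in the second. The treated values lay above both IP replicates in 15 of 38 windows, all between nt 111 and nt 195, and below both in 16, all between nt 26 and nt 115. At nt 176 to 185 treated coverage was 5.87 against 4.21 IP in the first file. The gap between treated and the nearer IP value reached 1.60, while the 2 IP values differed by up to 1.11. The coverage-weighted centre lay at nt 129 treated and at nt 123 and nt 124 in IP, a move of 5.97 and 4.95 nt away from the start.

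The YWHAQ profile hardly changed. Its treated and IP curves overlapped by 96.8% and 97.8%, at percentile 95.99 and 99.001 of all regions in the 2 files. The centre moved by 2.26 and 1.89 nt. The largest difference was at the far end, at nt 245 to 254, with 4.86 treated against 3.91 IP in the first file.

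YWHAZ moved the other way from YWHAG. Its centre was at nt 174 and nt 175 treated, against nt 192 and nt 188 in IP, which is -17.98 and -13.1 nt, that is, towards the transcript start. At nt 117 to 126 treated coverage was 5.18 against 2.33 IP in the first file, and at nt 114 to 123 it was 5.09 against 2.92 in the second. At nt 217 to 226 the order turned, with 4.80 against 7.87 in the first file. Within all regions of the 2 KO files the shift of YWHAZ stood at percentiles 8.17 and 13.7, that of YWHAG at 72.1 and 69.98 and that of YWHAQ at 58.6 and 58.3. The median shift of all regions was 0.168 nt in the first KO file and -0.0164 nt in the second.

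YWHAB in WT showed the greatest displacement in nt of the 4 members, in files where shifts were more spread. The quartiles of all shifts were -13.7 and 9.87 nt, and -18.7 and 7.87 nt, in the 2 WT files. In the 2 KO files they were -7.12 and 6.91 nt, and -7.10 and 6.78 nt. The windows of the first WT file begin only at nt 158, where treated coverage was already 14.2, and those of the second at nt 92. Treated coverage before nt 158 is thus missing from the first file, and its scaled values and centres depend on that start. In the first WT file the highest treated window was nt 173 to 182, at 15.7 against 2.15 in IP. At nt 278 to 287 treated coverage there was 0 against 9.20 in IP. In the second file nt 147 to 156 held 9.70 treated against 3.33 IP, and nt 247 to 256 held 0.550 against 7.54. The centre moved by -65.7 and -33.5 nt, at percentiles 1.75 and 11.6 of all WT regions, whose median shifts were -0.540 and -4.40 nt. Over the stretch that both files cover, nt 158 to 301, the moves were -50.04 and -27.3 nt, again without the coverage before nt 158. There the IP centres of the replicates were nt 247 and nt 227, nearer to each other than either was to its treated centre (nt 197 and nt 199.9).

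**Figure D4:**
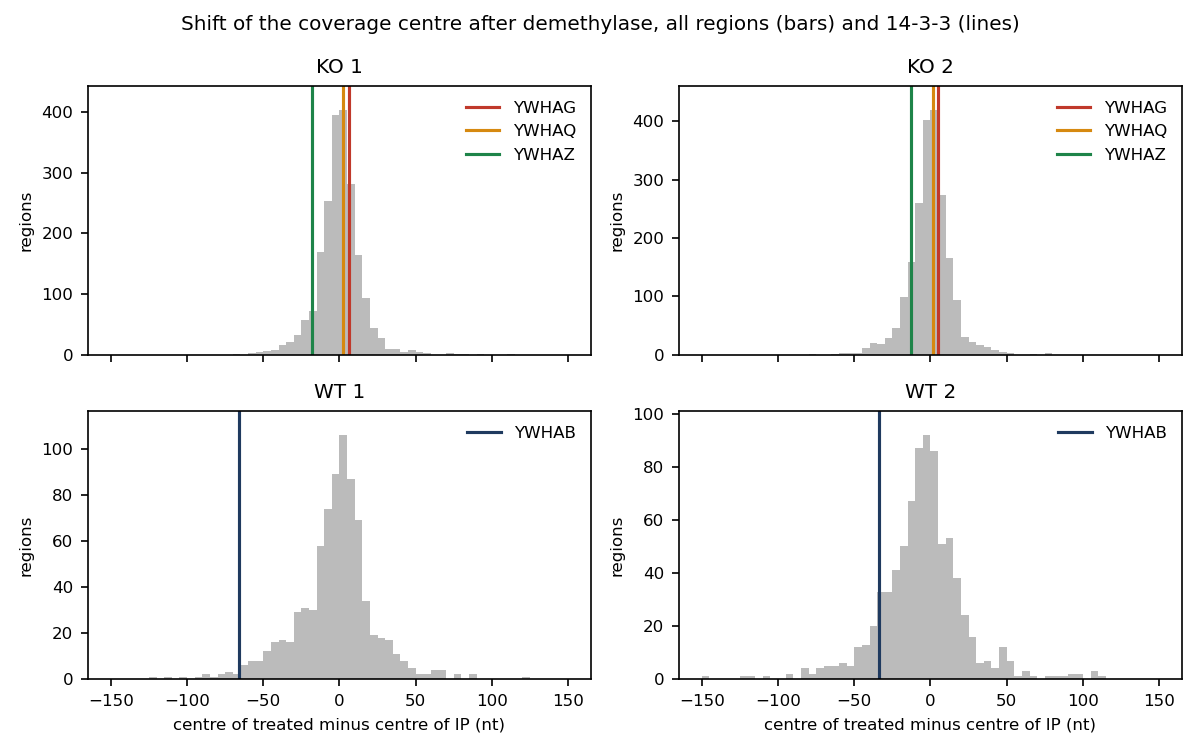
Number of regions (bars) by the coverage centre of the treated library minus that of IP, in nt, for each of the 4 windowed files, with vertical lines for the 14-3-3 regions. YWHAG and YWHAQ lie close to the bulk of regions just right of 0, YWHAZ left of it at -17.98 and -13.1 nt, and YWHAB far left at -65.7 and -33.5 nt.

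Pseudogenes named after the gene are listed for 4 of the 6 genes. The RefSeq table lists 10 pseudogenes each for YWHAQ and YWHAZ, 7 for YWHAE and 2 for YWHAB, and 0 for YWHAG and YWHAH. How reads that match several copies were treated is not stated, and its part in the calls of these 4 genes was not tested. The copies were counted by symbol alone, and how alike their sequences are was not examined. For YWHAH an antisense gene, YWHAH-AS1, lies over its start in the table, and whether strand was used in calling is not stated.

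Genes with the same pattern of calls over the 10 lists were few. The 4-list pattern of YWHAG was shared by 11 other genes, among them COPS3, a subunit of the COP9 signalosome, and RMP24, whose highest folds had a median percentile of 76.8 and 71.7 against 94.9 for YWHAG. For YWHAQ there were 13, with NME1, a nucleoside diphosphate kinase, nearest in that median percentile (25.9 against 22.3), and for YWHAB 14, with FAM120A nearest (79.5 against 82.1). YWHAH shared its pattern with 9 genes, BORA, a mitotic kinase activator, being nearest (87.7 against 86.9). Likeness to YWHAH and YWHAB was next seen in UBXN4 (90.5) and PDIA5 (64.1), and in PAK1 (75.3) and VEGFB (88.97), and to YWHAQ in SCD (16.9). No other gene had the 5-list pattern of YWHAZ. These likenesses describe 10 lists in which pairs are replicates, and nothing more.

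Clients of 14-3-3 proteins and kinases that phosphorylate their binding sites were looked up from a list of 52 genes. A peak in any list was found for 44 of them, in a median of 3 lists, as for all genes with a peak. HDAC5, a class IIa histone deacetylase that 14-3-3 keeps in the cytoplasm, was called in all 10 lists. BCR, a kinase and exchange factor, was called in 9, and AKT2, a kinase of insulin signalling, the autophagy kinase ULK1 and the cell cycle kinase WEE1 in 8 each. AKT1, IRS2, an adaptor of the insulin receptor, and PRKACA, a catalytic subunit of protein kinase A, were called in 6 each. Of all genes with a peak, 1.14% were in 10 lists, 2.71% in 9 or more, 5.48% in 8 or more and 16.4% in 6 or more. The counts are of genes, not of 1 region. On NM_004327 of BCR the summit was at nt 300 in the second WT list and at nt 4189 in the second Starve list.

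Of 23 partners with a peak in the 4 WT and KO lists, 1 was called in KO only, as YWHAG and YWHAQ were, against 16.3% of all genes. It was ZFP36L1, an RNA-binding protein that promotes mRNA decay. On its transcript NM_004926 the folds were 6.18 and 5.64, at nt 861 to 1009 and nt 873 to 991, further in than the 14-3-3 peaks. AKT2 and MAPKAPK2, a kinase of the p38 cascade, were called in WT only, that is, in both WT lists with no KO call. They were 2 of 23, against 4.97% of all genes. ZFP36L1 was also the only one of 42 called in both Starve lists and neither UT list (6.07% of all genes). Those peaks lay at another position (folds of 4.01 and 3.80 at nt 1390 to 1489 and nt 1441 to 1548). As a gene ZFP36L1 thus met the KO rule and the Starve rule, as YWHAG did. Unlike YWHAG it also had a peak in the first H2O2 list, and how many genes met both rules was not counted.

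In the peroxide comparison both the partners and all genes were called more often in UT alone than in H2O2 alone. CBL, a ubiquitin ligase, MARK2, a polarity kinase, and TSC2, a brake on mTORC1 signalling, were in both UT lists and neither H2O2 list. They made 3 of 39 partners (8.23% of all genes), and 0 of 39 were in both H2O2 lists alone (2.49%). MARK2 was 1 of 42 in both UT lists and neither Starve list (4.08% of all genes). Against WT, AKT1, ARHGEF2, a guanine nucleotide exchange factor, CBL and MARK2 made 4 of 36 in UT alone (14.2% of all genes). In WT alone there were 0 of 36 (1.57%). All these shares are near or below the share of all genes that met the same rule, given above, apart from the 2 of 23 in WT alone against KO.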

How the data were processed

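Tools named in the submitters' processing notes are HISAT, MACS2 and Trim Galore, without versions, with the build hg19. MACS2 lists were deposited per replicate, and per the file headers they are on RefSeq transcripts, so positions were read in nt from the transcript start. The deposited pileup is the coverage signal of a summit, with no visible normalization, and was compared between lists only as a percentile. The fold enrichment, −log10 p-value and −log10 q-value are the authors' values for each peak. In the 4 windowed files the deposited coverage signal is scaled within a region, and a further deposited score is treated minus IP coverage. The depth of the libraries is unknown.

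Symbols came from a RefSeq table of GRCh38.p14, used for names (17019 of 17315 transcripts matched, 98.3%). A gene was called in a list when any of its transcripts had a peak there. Peaks were merged into regions at an overlap of 1 nt. Merging and calling were tested on simulated lists. Python 3.11.15 with pandas 2.3.3 was used. The members and lists were chosen with earlier results of these data known. Named genes are the 6 members, SFN, partner genes called in 1 group of a comparison alone, up to 6 partners in the most lists (for the sixth place, a tie, all 3 are given), and the up to 3 genes nearest in pattern to each member. Some genes that this rule names are not reported here. The planned limma fit of treated over IP coverage was not run, since no member had a window in all 4 files and the treated columns are not replicates. Alternatives were a fold of 4, a −log10 q of 5, equal numbers of peaks per list, regions in place of genes, and leaving out each list.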

Additional observations from a re-analysis of the deposited data

How the results depend on the processing

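The count of 2 members called in KO only became 1 with a fold of 4 or more, which removed YWHAQ and left YWHAG, and was 2 to 3 without any 1 list. Without the first WT list it was 3, YWHAZ being added. The count in WT alone was 0 to 1 without 1 list: YWHAH without the first WT list, YWHAB without the first KO list. The Starve-only count of 1 became 0 at region level, with an overlap of 1 nt and with 50%, and was 1 to 2 without 1 list, since YWHAZ joined YWHAG without the first Starve list. In H2O2 alone, in UT alone against H2O2 or WT, and in WT alone against UT the count was 0 to 1 without 1 list, from YWHAZ without the second H2O2 list, YWHAH or YWHAQ without a UT list, YWHAQ without the second UT list, and YWHAZ without the second WT list. In UT alone against Starve it stayed 0 in every setting run. No paired analysis was possible because a rule that counts calls over both lists has no fit that takes a block, and the treated coverage is 1 profile per genotype. The alternatives of the limma fit were not run, as the fit was not. Depth limits what an absent call can show: no list gives a value for an uncalled region.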
